A study of Mus musculus with 15 samples.

Results

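The genes described here are 9 genes of fuel selection tied to the peroxisome proliferator-activated receptors (PPARs), followed in the gastrocnemius of aged mice with Low or High frailty marking, with and without downhill running. They were taken by name and not by a limit on their values, with earlier results of these data known. They are the receptors Ppara and Ppard, the pyruvate dehydrogenase kinases Pdk4 and Pdk2, the mitochondrial carriers Ucp3 and Ucp2, the mitochondrial thioesterase Acot2, the secreted lipase inhibitor Angptl4 and the lipid droplet coat protein Plin2. All 9 symbols matched 1 gene each among the 55450 counted genes, and all 9 were among the 16920 genes that passed the filter on low counts and were tested.

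PPARs are nuclear receptors that are switched on by fatty acids and related ligands, pair with a retinoid X receptor and bind DNA at repeats of a short half-site. In skeletal muscle they are known for raising genes of fatty acid uptake and oxidation when fat is the main fuel, as in fasting and endurance exercise. The same state holds back the use of glucose, since a pyruvate dehydrogenase kinase adds phosphate to the pyruvate dehydrogenase complex and so closes the entry of pyruvate into the mitochondrion's oxidation of fuel.

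RNA sequencing was available from the gastrocnemius of 15 female C57BL/6JN mice (C57BL/6 in the series record) older than 17 months, 1 library per mouse, with free access to chow and water. Mice with at most 1 positive frailty marker formed the Low group (called robust in the sample labels) and mice with at least 2 formed the High group (called frail), where the markers were body weight, a frailty index, treadmill distance, grip strength and rotarod latency with limits set within the same cohort. Run mice ran downhill on a treadmill in 2 bouts, at a decline of 22 degrees and up to 13 m/min, and muscle was taken 24 h after the last of them, and Control mice stayed sedentary in their cages. There were 4 Low Control mice (D8, D9, D11 and D98), 4 Low Run mice (D57, D61, D66 and D68), 3 High Control mice (D23, D25 and D67) and 4 High Run mice (D49, D52, D53 and D62). The labels gave no genetic change, no agent and no sequencing batch for any group. The High group is a group of aged mice set apart by limits within their own cohort, and not a model with a single defined lesion.

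Total counts ranged from 19395125 to 30699216 per mouse, with a median of 25926420. Levels are given in CPM, a gene's counts divided by the mouse's total and multiplied by 1000000. Fold changes are on the log2 scale from edgeR's quasi-likelihood test of all 15 mice in 1 model, each with its standard error (SE), an unadjusted p and a p adjusted by Benjamini-Hochberg over the 16920 genes, and a gene was called at an adjusted p (FDR) under 0.1. In all 6 comparisons edgeR called 0 of the 16920 genes (0% in each). DESeq2 called 9 genes in Low Run against Low Control, 15 in High Run against High Control and 105 for running averaged over the frailty groups, and limma's voom with quality weights called 45 in High Run against High Control, with 0 members among them in either tool. The skeletal muscle markers were abundant in every library, with summed levels of 71422 to 133202 CPM over 7 genes, while the liver marker sum was at most 7.55 CPM and the heart marker sum at most 7.19 CPM. In such bulk libraries, fewer cells of a type and less RNA per cell cannot be told apart.

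Mice of the same group differed widely in several of the 9 genes. Pdk4 ranged 49.1-fold over the 15 mice, Acot2 17.4-fold, Angptl4 15.3-fold and Ucp3 10.1-fold, against 1.31-fold for Pdk2. The 4 groups accounted for between 5.07% (Pdk4) and 42.5% (Pdk2) of the variance of a gene on the log2 scale, with 22.5% for the median tested gene. The highest values came mainly from Low Control mouse D9, which held the top place for 7 of the 9 genes, and from High Run mouse D62, which held the second place behind D9 for 5 genes (Ppard, Pdk4, Ucp3, Acot2 and Angptl4). These 2 mice belong to different frailty groups and different run groups. Values without both mice stand beside the main results, a setting that was chosen after seeing the data.

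**Figure D1:**
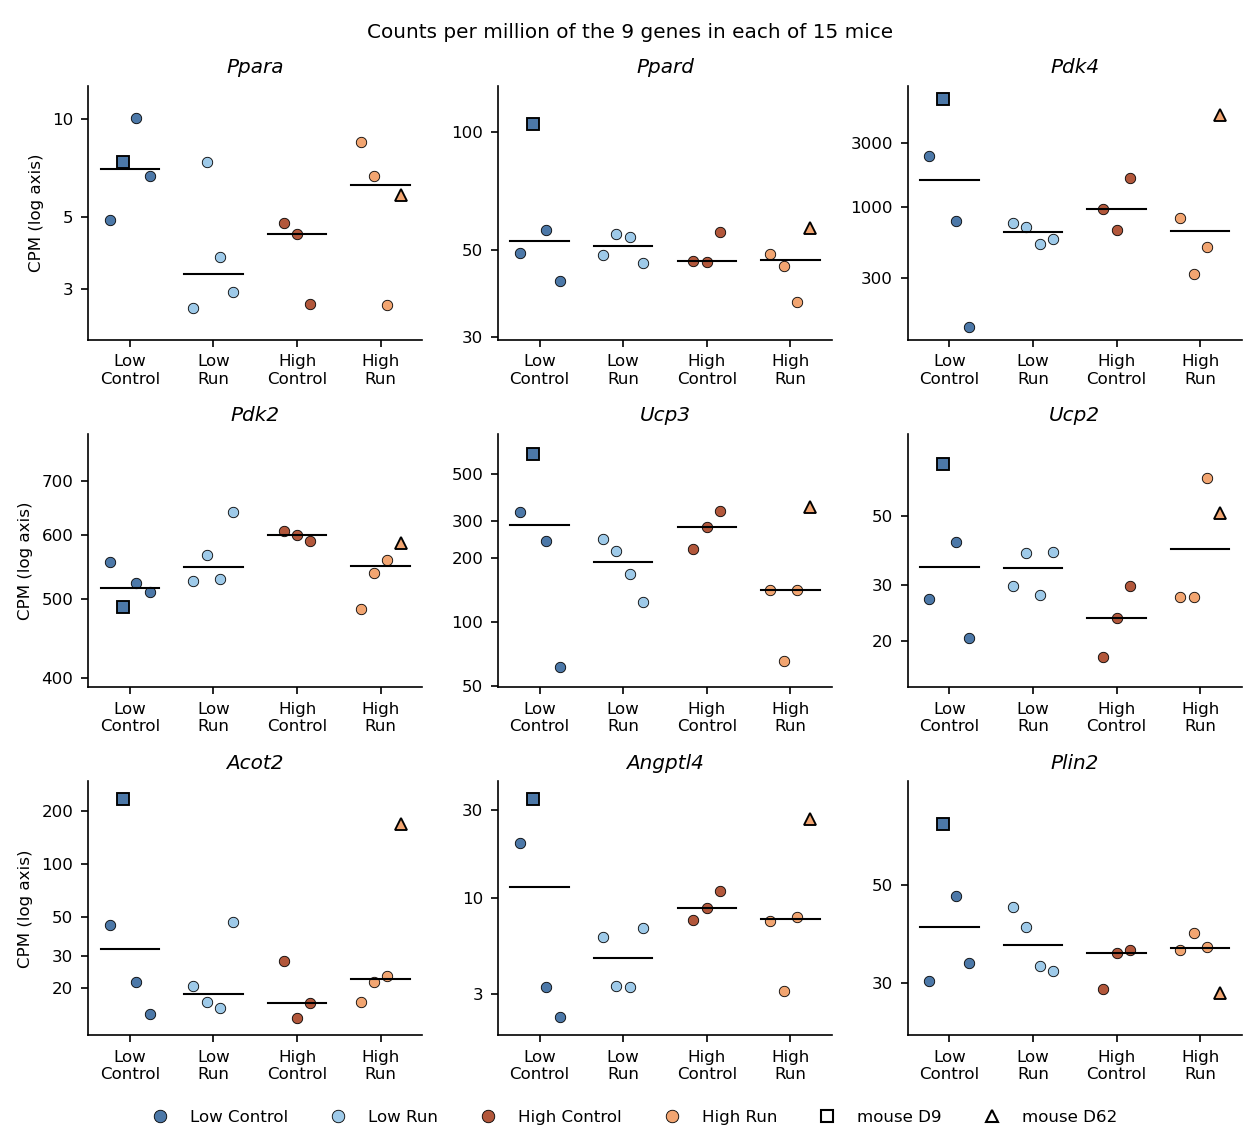
CPM of each of the 9 genes in each mouse by group, on log axes that differ between panels. Points are mice, the bar is the group median, the square is Low Control mouse D9 and the triangle is High Run mouse D62, which reached 6355 and 4845 CPM for Pdk4 while the other 13 mice stayed at or under 2397 CPM.

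Of the receptors, Ppara (ENSMUSG00000022383, chromosome 15 from 85734983 to 85802819, plus strand, build GRCm38 here and for every gene) is the form best known for the fasting response of liver and heart. Ppara was scarce, at 4.91 CPM in D8, 7.39 in D9, 10.1 in D11 and 6.67 in D98 among Low Control and 2.63 CPM in D57, 7.35 in D61, 3.76 in D66 and 2.94 in D68 among Low Run mice. In the High groups it was 4.80 CPM in D23, 4.43 in D25 and 2.7 in D67 for Control and 8.45 CPM in D49, 6.67 in D52, 2.69 in D53 and 5.83 in D62 for Run mice. Each library held at least 57 reads of this gene. This gave mean levels (± SD) of 7.26 ± 2.15 CPM in the 4 Low Control, 4.17 ± 2.17 in the 4 Low Run, 3.97 ± 1.12 in the 3 High Control and 5.91 ± 2.41 in the 4 High Run mice. All 3 High Control mice lay below all 4 Low Control mice, while Low Run overlapped Low Control through mouse D61 and High Run overlapped High Control through mouse D53. Ppara was lower in Low Run than in Low Control mice by an unadjusted test only, with a log2 fold change of -0.88 (SE 0.35, unadjusted p = 0.0226, adjusted p = 0.358), and it was 0.45 (SE 0.38, unadjusted p = 0.251, adjusted p = 0.958) in High Run against High Control. The interaction, which is the High change minus the Low change, was 1.33 (SE 0.51, unadjusted p = 0.0201, adjusted p = 0.600). High Control against Low Control gave -0.84 (SE 0.38, unadjusted p = 0.0433, adjusted p = 0.704). Leaving out D9 and D62, the Low change was -0.85 (SE 0.39, unadjusted p = 0.0446, adjusted p = 0.650) and the interaction 1.30 (SE 0.57, unadjusted p = 0.0388, adjusted p = 0.984). An exact permutation test of log2(CPM + 0.5) gave p = 0.0571 for High Control against Low Control and p = 0.0857 for Low Run against Low Control.

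Ppard (ENSMUSG00000002250, chromosome 17 from 28232700 to 28301474, plus strand) encodes the form that is prominent in skeletal muscle. It was 49.1 CPM in D8, 105 in D9, 56.3 in D11 and 41.8 in D98 among Low Control and 48.7 CPM in D57, 55.1 in D61, 54.0 in D66 and 46.2 in D68 among Low Run mice. The High mice stood at 46.9 CPM in D23, 46.6 in D25 and 55.7 in D67 for Control and 49.04 CPM in D49, 45.6 in D52, 36.9 in D53 and 56.9 in D62 for Run. Apart from D9, all mice lay between 36.9 and 56.9 CPM, and all 4 groups overlapped. The group values came to mean levels (± SD) of 63.0 ± 28.5 CPM in the 4 Low Control, 51.0 ± 4.24 in the 4 Low Run, 49.7 ± 5.14 in the 3 High Control and 47.1 ± 8.29 in the 4 High Run mice. The log2 fold change was -0.41 (SE 0.24, unadjusted p = 0.103, adjusted p = 0.422) in the Low mice and -0.18 (SE 0.25, unadjusted p = 0.497, adjusted p = 0.967) in the High mice, and the Low value was -0.02 (SE 0.13, unadjusted p = 0.855, adjusted p = 0.960) without D9 and D62. Per exon length, Ppard was the more abundant receptor, with a mean of 7.04 ± 2.06 CPM per kilobase of exon (RPKM, SD, n = 15) against 1.41 ± 0.603 RPKM for Ppara. The related receptor Pparg had a median of 5.67 CPM and a range of 3.65 to 7.77 CPM.

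Pdk4 (ENSMUSG00000019577, chromosome 6 from 5483351 to 5496309, minus strand) encodes the kinase isoform that is induced in muscle by fasting, fatty acids and glucocorticoids, and it is often used as a readout of the switch from glucose to fat. The 250 bases before its RefSeq start (chr6:5496279-5496528, minus strand, GRCm38.p6) are shown because Pdk4 had the widest range of the 9 genes; none of the 6 motifs searched was found in this window, so there are no capitals.

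Pdk4: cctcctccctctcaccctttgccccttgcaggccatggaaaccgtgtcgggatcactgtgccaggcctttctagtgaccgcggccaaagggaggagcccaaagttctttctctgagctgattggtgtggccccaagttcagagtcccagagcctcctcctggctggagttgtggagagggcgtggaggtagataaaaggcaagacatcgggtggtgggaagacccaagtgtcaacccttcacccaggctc

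Pdk4 stood at 2397 CPM in D8, 6355 in D9, 783 in D11 and 129 in D98 among Low Control mice, and at 758 CPM in D57, 718 in D61, 529 in D66 and 584 in D68 among Low Run mice. In the High groups it was 968 CPM in D23, 681 in D25 and 1637 in D67 for Control and 829.9 CPM in D49, 318 in D52, 509 in D53 and 4845 in D62 for Run mice. Low Control mice thus held both the highest and the lowest of the 15 values, and the 4 Low Run mice lay close together inside that range. The group values were mean levels (± SD) of 2416 ± 2793 CPM in the 4 Low Control, 647 ± 109 in the 4 Low Run, 1095 ± 490.3 in the 3 High Control and 1625 ± 2156 in the 4 High Run mice. Running in Low mice went with a log2 fold change of -2.04 (SE 0.92, unadjusted p = 0.0418, adjusted p = 0.363), a value at 0.243 of the control level, and running in High mice with 0.47 (SE 0.97, unadjusted p = 0.632, adjusted p = 0.977). Without D9 and D62 the Low value was -0.91 (SE 0.63, unadjusted p = 0.169, adjusted p = 0.678) and the High value changed sign to -1.09 (SE 0.69, unadjusted p = 0.134, adjusted p = 0.83). The interaction fell from 2.51 (SE 1.34, unadjusted p = 0.0795, adjusted p = 0.600) to -0.18 (SE 0.93, unadjusted p = 0.852, adjusted p = 1.00) in the same step. Averaged over both frailty groups, the change with running was -0.78 (SE 0.65, unadjusted p = 0.247, adjusted p = 0.733) in all mice and -1.002 (SE 0.47, unadjusted p = 0.0492, adjusted p = 0.506) without the 2 mice. On the log2 scale the SD of Pdk4 over mice was 1.43, larger than that of 99.9% of the tested genes.

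Pdk2 (ENSMUSG00000038967, chromosome 11 from 95026258 to 95041354, minus strand) encodes the widely expressed kinase isoform, and its locus overlaps the antisense gene Gm11513. In contrast to Pdk4 it had nearly the same level in every mouse. Pdk2 was 555 CPM in D8, 489.8 in D9, 523 in D11 and 510.4 in D98 among Low Control and 527 CPM in D57, 568 in D61, 529.8 in D66 and 640.2 in D68 among Low Run mice. The High mice had 608 CPM in D23, 601 in D25 and 589.7 in D67 for Control and 487 CPM in D49, 538 in D52, 559.7 in D53 and 587 in D62 for Run. All 3 High Control mice lay above all 4 Low Control mice and above all 4 High Run mice, by small amounts. The values gave mean levels (± SD) of 519.6 ± 27.4 CPM in the 4 Low Control, 566 ± 52.7 in the 4 Low Run, 599 ± 9.03 in the 3 High Control and 543 ± 42.5 in the 4 High Run mice. In High Run against High Control the log2 fold change was -0.24 (SE 0.13, unadjusted p = 0.0747, adjusted p = 0.956), and in Low Run against Low Control 0.03 (SE 0.12, unadjusted p = 0.791, adjusted p = 0.918). High Control against Low Control gave 0.21 (SE 0.13, unadjusted p = 0.118, adjusted p = 0.704), and the exact permutation p was 0.0571 for this comparison and 0.0571 for High Run against High Control. Only 1.13% of the tested genes had a smaller SD over mice than Pdk2 on the log2 scale (SD 0.116). The High change was -0.29 (SE 0.12, unadjusted p = 0.0363, adjusted p = 0.705) without D9 and D62. Of the other kinases of this family, Pdk1 ranged from 50.2 to 91.2 CPM, and Pdk3 from 0.533 to 1.58 CPM.

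Ucp3 (ENSMUSG00000032942, chromosome 7 from 100472990 to 100486432, plus strand) encodes the muscle uncoupling protein, an inner membrane carrier that rises with fatty acid supply. Its promoter window held 2 copies of the receptor half-site AGGTCA on the plus strand of the window, which begin 149 and 44 bases before the RefSeq start and are in capitals in the 250 bases before the start (chr7:100472741-100472990, plus strand, GRCm38.p6), printed as an example of a member that carries the half-site.

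Ucp3: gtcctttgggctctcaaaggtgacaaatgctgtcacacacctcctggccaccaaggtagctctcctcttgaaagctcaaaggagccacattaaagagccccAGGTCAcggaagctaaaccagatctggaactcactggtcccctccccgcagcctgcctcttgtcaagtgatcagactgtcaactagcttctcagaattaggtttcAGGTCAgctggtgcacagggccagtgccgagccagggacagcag

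Ucp3 was 333 CPM in D8, 621 in D9, 241 in D11 and 61.5 in D98 among Low Control and 247 CPM in D57, 216 in D61, 169 in D66 and 125 in D68 among Low Run mice. The High mice had 221 CPM in D23, 281 in D25 and 333 in D67 for Control and 142 CPM in D49, 65.2 in D52, 142 in D53 and 351 in D62 for Run. Of the High Run mice, 3 lay below every High Control mouse and D62 lay above all of them, and in the Low groups the Control mice again spanned the Run mice. The group values were mean levels (± SD) of 314 ± 234 CPM in the 4 Low Control, 189 ± 53.6 in the 4 Low Run, 278 ± 56.4 in the 3 High Control and 175 ± 123 in the 4 High Run mice. The log2 fold change was -0.85 (SE 0.54, unadjusted p = 0.137, adjusted p = 0.458) in the Low mice and -0.76 (SE 0.58, unadjusted p = 0.207, adjusted p = 0.958) in the High mice, with -0.81 (SE 0.40, unadjusted p = 0.0594, adjusted p = 0.585) averaged over both. With D9 and D62 left out, the High change was -1.35 (SE 0.47, unadjusted p = 0.0126, adjusted p = 0.620) and the average -0.81 (SE 0.32, unadjusted p = 0.0235, adjusted p = 0.437). In the same step the Low change went to -0.27 (SE 0.43, unadjusted p = 0.547, adjusted p = 0.855), and the interaction from 0.09 (SE 0.79, unadjusted p = 0.912, adjusted p = 0.977) to -1.08 (SE 0.64, unadjusted p = 0.113, adjusted p = 0.984). Ucp3 overlaps the antisense gene Gm10603 on the other strand, and reads had been counted on the strand of each gene.

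Ucp2 (ENSMUSG00000033685, chromosome 7 from 100493337 to 100502020, plus strand) encodes the related carrier that is widespread and abundant in immune cells, and lies 6904 bases from Ucp3 on the same strand. It stood at 27.2 CPM in D8, 73.2 in D9, 41.3 in D11 and 20.4 in D98 among Low Control and 29.9 CPM in D57, 38.1 in D61, 27.9 in D66 and 38.4 in D68 among Low Run mice. In the High groups it was 17.7 CPM in D23, 23.7 in D25 and 29.8 in D67 for Control and 27.6 CPM in D49, 27.6 in D52, 65.9 in D53 and 50.9 in D62 for Run mice. High Run mice D53 and D62 and Low Control mouse D9 had the 3 highest values, and every pair of groups overlapped. This gave mean levels (± SD) of 40.5 ± 23.4 CPM in the 4 Low Control, 33.6 ± 5.46 in the 4 Low Run, 23.7 ± 6.03 in the 3 High Control and 43.0 ± 18.8 in the 4 High Run mice. The change with running was -0.37 (SE 0.36, unadjusted p = 0.314, adjusted p = 0.618) in Low mice and 0.78 (SE 0.39, unadjusted p = 0.0667, adjusted p = 0.956) in High mice, and the interaction 1.15 (SE 0.53, unadjusted p = 0.0465, adjusted p = 0.600). The interaction was 0.57 (SE 0.44, unadjusted p = 0.212, adjusted p = 0.984) without D9 and D62, and the Low value changed sign to 0.11 (SE 0.30, unadjusted p = 0.725, adjusted p = 0.918). All 9 of 9 macrophage markers were detected, and their summed level was 113 to 232 CPM in Low Control, 195 to 269.6 in Low Run, 94.5 to 152 in High Control and 152 to 310.3 in High Run mice. The part of these cells in the Ucp2 values was not tested. Between the neighbours Ucp3 and Ucp2, Pearson's r over the 15 mice was 0.398 (permutation p = 0.141, adjusted 0.267) and Spearman's rho 0.311 (permutation p = 0.260), with r = 0.232 without D52 and D98, the farthest in Ucp3.

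Acot2 (ENSMUSG00000021226, chromosome 12 from 83987861 to 83993873, plus strand) encodes a thioesterase that frees fatty acids from coenzyme A inside the mitochondrion. It was 45.0 CPM in D8, 235 in D9, 21.4 in D11 and 14.2 in D98 among Low Control and 20.3 CPM in D57, 16.6 in D61, 15.4 in D66 and 47.0 in D68 among Low Run mice. The High mice had 28.1 CPM in D23, 13.5 in D25 and 16.4 in D67 for Control and 16.6 CPM in D49, 21.5 in D52, 23.3 in D53 and 168 in D62 for Run. D9 and D62 stood apart from the other 13 mice, which did not pass 47.0 CPM, and each lay in a group whose other mice overlapped all other groups. Group values were mean levels (± SD) of 78.8 ± 105 CPM in the 4 Low Control, 24.8 ± 14.9 in the 4 Low Run, 19.3 ± 7.74 in the 3 High Control and 57.4 ± 73.9 in the 4 High Run mice. The log2 fold change was -1.80 (SE 0.87, unadjusted p = 0.0554, adjusted p = 0.376) in Low mice and 1.45 (SE 0.95, unadjusted p = 0.147, adjusted p = 0.956) in High mice, and the interaction of 3.26 (SE 1.30, unadjusted p = 0.0233, adjusted p = 0.600) was the largest of the 9 genes. In the other 13 mice these 3 values were -0.23 (SE 0.44, unadjusted p = 0.603, adjusted p = 0.879), -0.04 (SE 0.47, unadjusted p = 0.940, adjusted p = 0.999) and 0.20 (SE 0.65, unadjusted p = 0.765, adjusted p = 0.995). The neighbouring family member Acot1, a cytosolic thioesterase, shares 24.5% of Acot2's 50-base stretches, so the share of reads counted for each is uncertain. Acot1 had the same pattern at a lower level, with 29.7 CPM in D9 and 33.7 in D62 against at most 5.98 CPM in the other 13 mice (r = 0.955 with Acot2 over the 15 mice). Its log2 fold change was -1.87 in Low mice (unadjusted p = 0.0858, adjusted p = 0.406) and 2.10 in High mice (unadjusted p = 0.0830, adjusted p = 0.956), and in the other 13 mice it was 0.07 (unadjusted p = 0.894), with a changed sign, and 0.28 (unadjusted p = 0.633).

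Angptl4 (ENSMUSG00000002289, chromosome 17 from 33773750 to 33781830, minus strand) encodes a secreted inhibitor of lipoprotein lipase, which limits the uptake of fatty acids from circulating triglycerides. It stood at 19.7 CPM in D8, 34.2 in D9, 3.27 in D11 and 2.24 in D98 among Low Control and 6.09 CPM in D57, 3.31 in D61, 3.28 in D66 and 6.81 in D68 among Low Run mice. For the High groups the values were 7.57 CPM in D23, 8.82 in D25 and 10.8 in D67 in Control and 7.50 CPM in D49, 3.12 in D52, 7.87 in D53 and 26.6 in D62 in Run mice. In Low Control, mice D8 and D9 were above every Low Run mouse, D98 was below them all and D11 was level with the lowest. The group values came to mean levels (± SD) of 14.9 ± 15.2 CPM in the 4 Low Control, 4.87 ± 1.84 in the 4 Low Run, 9.08 ± 1.65 in the 3 High Control and 11.3 ± 10.4 in the 4 High Run mice. The log2 fold change was -1.75 (SE 0.75, unadjusted p = 0.0332, adjusted p = 0.359) in Low mice and 0.22 (SE 0.78, unadjusted p = 0.779, adjusted p = 0.987) in High mice. In the 13 mice other than D9 and D62 it was -0.94 (SE 0.61, unadjusted p = 0.142, adjusted p = 0.670) in Low mice and, with a changed sign, -0.65 (SE 0.64, unadjusted p = 0.329, adjusted p = 0.924) in High mice. All 8 of 8 adipocyte markers were detected, with summed levels of 365 to 456 CPM in Low Control, 275 to 385 in Low Run, 265 to 567 in High Control and 325 to 491 in High Run mice. D9 was at 379 CPM in this sum, inside the range of its own group, and D62 at 491 CPM was the highest High Run mouse.

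Plin2 (ENSMUSG00000028494, chromosome 4 from 86648386 to 86670060, minus strand) encodes a coat protein of lipid droplets that follows the amount of stored fat. Its window is the other one that held the half-site, on the minus strand of the window from 218 bases before the start (seen as TGACCT in capitals), and an E-box, CACGTG, begins 4 bases before the start and runs past it, so that its first 4 letters close the 250 bases before the start (chr4:86670060-86670309, minus strand, GRCm38.p6).

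Plin2: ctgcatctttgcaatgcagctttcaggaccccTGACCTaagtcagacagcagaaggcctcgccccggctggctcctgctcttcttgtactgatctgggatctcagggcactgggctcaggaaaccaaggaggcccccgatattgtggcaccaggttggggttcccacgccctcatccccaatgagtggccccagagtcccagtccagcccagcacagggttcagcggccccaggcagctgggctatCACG

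Plin2 was 30.3 CPM in D8, 68.8 in D9, 47.1 in D11 and 33.3 in D98 among Low Control and 44.5 CPM in D57, 40.1 in D61, 32.7 in D66 and 31.9 in D68 among Low Run mice. The High mice had 29.0 CPM in D23, 34.99 in D25 and 35.6 in D67 for Control and 35.6 CPM in D49, 38.8 in D52, 36.2 in D53 and 28.5 in D62 for Run. D9 was again the highest mouse, but D62 was the lowest, so Plin2 did not share the second peak of the variable genes. This gave mean levels (± SD) of 44.9 ± 17.5 CPM in the 4 Low Control, 37.3 ± 6.08 in the 4 Low Run, 33.2 ± 3.66 in the 3 High Control and 34.8 ± 4.43 in the 4 High Run mice. The log2 fold change was -0.36 (SE 0.22, unadjusted p = 0.124, adjusted p = 0.444) in Low mice, -0.03 (SE 0.24, unadjusted p = 0.909, adjusted p = 0.995) in High mice and 0.33 (SE 0.32, unadjusted p = 0.325, adjusted p = 0.717) for the interaction. The Low value was -0.05 (SE 0.14, unadjusted p = 0.730, adjusted p = 0.920) without D9 and D62.

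Promoter windows of 250 bases before to 50 after the RefSeq start, on GRCm38.p6, were matched for 8 of the 9 genes (all but Angptl4). Both strands were searched, and matches are descriptions of the letters in a window. The half-site AGGTCA was in 2 of these 8 genes and in 16.3% of all 32851 windows. Its direct repeat with 1 free base between the copies, the arrangement PPARs are known for, was in none of the 8 and in 0.0396% of all windows, or 0.381% with position 4 of each copy left free. The FoxO motif TGTTTAC (3.65% of all windows) and the glucocorticoid receptor half-site AGAACA (19%) were also in none of the 8. The palindromic E-box CACGTG was in Pdk2, 126 bases before the start, and in Plin2, and in 7.15% of all windows. None of these motifs overlapped another in the 8 genes.

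Across the 15 mice, the order of mean levels per exon length was Pdk4 (419 ± 509 RPKM, SD, n = 15), Pdk2 (175 ± 14.2), Ucp3 (75.4 ± 44.9), Acot2 (21.3 ± 29.5), Plin2 (10.8 ± 2.87), Ppard, Ucp2 (5.15 ± 2.30), Angptl4 (2.85 ± 2.66) and Ppara. Neighbours in this order held their places in 15 of 15 mice for Ucp3 above Acot2 and for Plin2 above Ppard, and in 14 for Pdk2 above Ucp3 and for Ppard above Ucp2. Ucp2 was above Angptl4 in 13 mice. The order was within the spread for Pdk4 above Pdk2 (10 of 15 mice), for Angptl4 above Ppara (9 of 15) and for Acot2 above Plin2, where only 6 of 15 mice followed the order of the means.

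The comparison of Low Run with Low Control mice asks what downhill running changed in mice with few frailty markers. With edgeR 8 of the 9 genes had a fold change below 0, with a median of -0.85 on the log2 scale against 0.02 over all tested genes, and 0 passed the FDR. At an unadjusted p under 0.05 there were 3 of 9 (Ppara, Pdk4 and Angptl4, all lower), where 13.4% of all tested genes reached that level in either direction. Without D9 and D62 the median was -0.23 and Ppara alone stayed under 0.05, against 7.33% of all genes. With a single mouse left out, the unadjusted edgeR p of Ppara rose above 0.05 without D11 (0.0687), D57 (0.0701) or D68 (0.06435). With DESeq2, Acot2 joined the 3 genes, against 7.47% of all 35372 genes with a p in that tool, and with voom and quality weights only Ppara was under an unadjusted 0.05, against 8.19% of all genes.

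In High mice, 5 of the 9 genes were above 0 and 4 below with running, with a median log2 fold change of 0.22 against 0.05 over all genes. None passed the FDR or an unadjusted 0.05 with edgeR, a level reached by 5.18% of all genes, and DESeq2 gave 1 (Pdk2, against 3.23% of all genes) and voom with quality weights 3 (Ppara, Pdk2 and Ucp3, against 13.6%). Without D9 and D62 the median was -0.29, and Ucp3 and Pdk2 were lower at an unadjusted p under 0.05, against 6.85% of all genes. The smallest adjusted p of a member in that setting was 0.620.

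**Figure D2:**
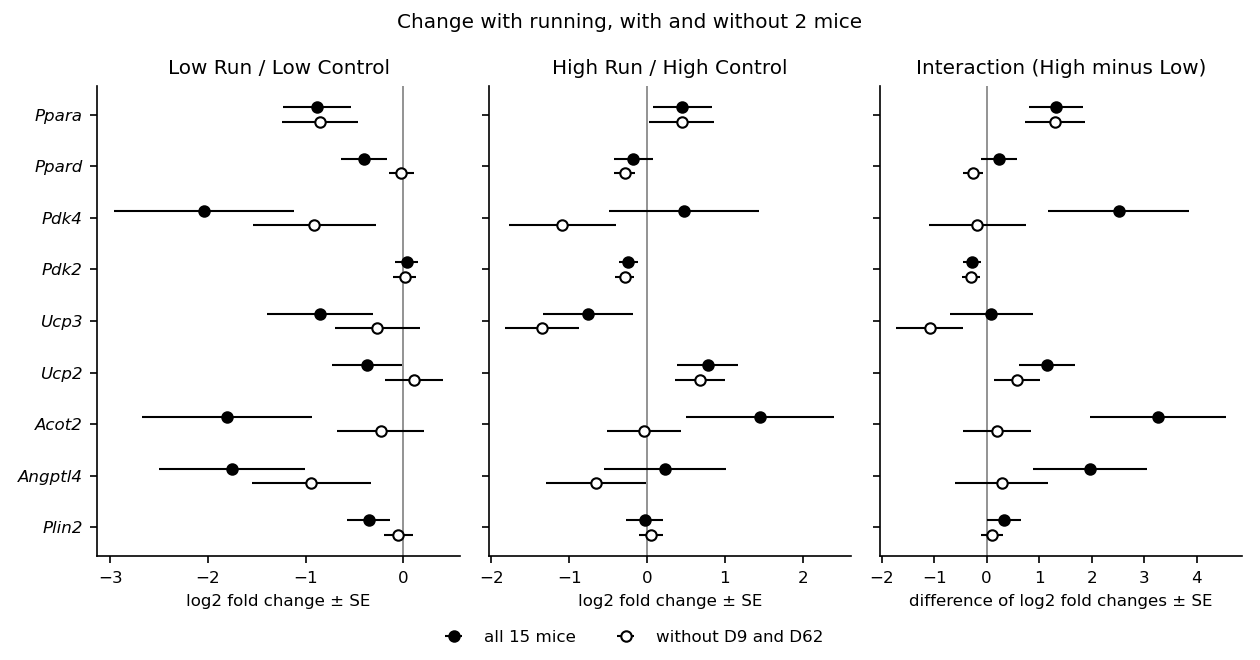
Change with running in Low mice, in High mice and their difference for each gene, as log2 fold changes with 1 SE from edgeR (filled, all 15 mice; open, without D9 and D62). The Acot2 interaction went from 3.26 to 0.20 and that of Pdk4 from 2.51 to -0.18, while that of Ppara was 1.33 and 1.30.

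The Frailty × Run interaction was above 0 for 8 of the 9 genes, with a median of 1.15 against 0.03 over all genes. At an unadjusted p under 0.05 there were 3 of 9 (Ppara, Ucp2 and Acot2, all higher) where 7.93% of all tested genes reached that level, and 0 passed the FDR. With both mice left out the median was 0.10 and Ppara was the 1 gene left under 0.05, against 4.42% of all genes. Running averaged over both groups gave 8 of 9 genes below 0 and 0 under an unadjusted 0.05, a level reached by 8.63% of all genes. Without the 2 mice it gave Pdk4 and Ucp3 under 0.05, both lower, where 9.79% of all genes were under it and the smallest adjusted p of a member was 0.437. The interaction and the Low comparison share the 4 Low Control mice, D9 included, so their values are not separate evidence.

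Sedentary High and Low mice give the difference with frailty alone. In High Control against Low Control, 8 of 9 genes were below 0 with a median log2 fold change of -0.77 against -0.02 over all genes, and -0.06 without D9 and D62. With edgeR Ppara was the 1 gene under an unadjusted 0.05, where 5.86% of all genes were, and 0 passed the FDR. DESeq2 gave 3 (Ppara, Ucp2 and Acot2, against 3.53% of all genes) and voom with quality weights 2 (Ppara and Pdk2, against 9.33%). With D9 and D62 left out, Ppara was at -0.81 (SE 0.42, unadjusted p = 0.0739, adjusted p = 0.996) and 0 of 9 genes were under 0.05, against 3.80% of all genes. In High Run against Low Run, 0 of 9 genes were under 0.05 against 2.51% of all genes, and the median was 0.36, or -0.11 without D9 and D62. Over the 36 exact permutation tests of single genes in the 4 pairwise comparisons, the smallest p was 0.0571 and the smallest adjusted p 0.686. The tests at 0.0571 compared groups of 3 and 4 mice without overlap. This is the smallest p such groups can give here, where the two-sided p is the p of a single side doubled. Ranking the arrangements by absolute difference instead would allow 0.0286. With 4 mice in both groups the smallest possible p is 0.0286.

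D9 and D62 were the 2 highest mice in 5 of the 9 genes, against 12.9% of all tested genes (2185 of 16920). This rule was written after the values were seen. D9 had the lowest summed level of the 7 skeletal muscle markers (71422 CPM), the lowest slow fibre sum of the Low Control group (2130.0 CPM over 7 genes) and the lowest level of the fast glycolytic fibre gene Myh4 in that group (46365 CPM). D62 had the highest slow fibre sum of all mice (5089 CPM) and the lowest Myh4 level (32635 CPM). The 2 mice thus each had the lowest Myh4 level of their group and lay at opposite ends of their groups in the slow fibre sum. Each also had the lowest fibroblast sum of its group (638 CPM in D9 and 573 in D62, over 5 genes) and the lowest macrophage sum (113 and 152 CPM). Their total counts were 25992635 and 30699216. The part of these differences in the members' levels was not tested.

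Correlations of log2(CPM + 0.5) over mice were computed for the 36 pairs of the 9 genes, and 7 pairs had a Benjamini-Hochberg adjusted permutation p under 0.05. The strongest were Pdk4 with Angptl4 (Pearson's r = 0.907, permutation p = 1e-05, the smallest that 100000 permutations can give, adjusted 0.00036; Spearman's rho = 0.768, permutation p = 0.00114, adjusted 0.0103) and Pdk4 with Ucp3 (r = 0.895, permutation p = 2e-05, adjusted 0.00036; rho = 0.843, permutation p = 0.00014, adjusted 0.00504). For both pairs the 2 mice farthest from the median of Pdk4 were D9 and D62, and without them r was 0.797 (adjusted permutation p = 0.0185) and 0.876 (adjusted permutation p = 0.00108). These were the 2 pairs that kept an adjusted p under 0.05 in the other 13 mice. With each value taken as its deviation from the group mean, r was 0.913 and 0.947.

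The relation of Pdk4 with Acot2 rested on those 2 mice, with r = 0.789 (permutation p = 0.0008, adjusted 0.00648) in all mice, rho = 0.496 (permutation p = 0.0621, adjusted 0.248) and r = 0.392 without them. Acot2 with Angptl4 went from r = 0.797 (permutation p = 0.00057, adjusted 0.00648; rho = 0.479, permutation p = 0.0737) to 0.479 in the same way. Ucp3 with Angptl4 had r = 0.768 (permutation p = 0.0009, adjusted 0.00648; rho = 0.786, permutation p = 0.00089), 0.695 without D52 and D98, which were farthest in Ucp3, and 0.638 without D9 and D62. Ppard followed Pdk4 with r = 0.721 (permutation p = 0.00219, adjusted 0.0131; rho = 0.782, permutation p = 0.00092) and Ucp3 with r = 0.696 (permutation p = 0.00277, adjusted 0.0142; rho = 0.746, permutation p = 0.00209). Without D9 and D53, the farthest in Ppard, these were 0.654 and 0.673, and without D9 and D62 they were 0.495 and 0.541. For Ppara with Pdk4, Ucp3, Ucp2, Acot2 and Angptl4, r lay between -0.105 and 0.144 and rho between -0.168 and 0.211, with no adjusted permutation p of r under 0.821. Without D9 and D62, r for these pairs lay between -0.444 and -0.200, with no adjusted permutation p under 0.471. In all mice, r of Ppara was -0.520 with Pdk2 (permutation p = 0.0477, adjusted 0.115), 0.356 with Ppard and 0.305 with Plin2. Pdk2 had its lowest r with Plin2, at -0.578 (permutation p = 0.0204, adjusted 0.0735; rho = -0.554, permutation p = 0.0354), and -0.678 without D49 and D68, the farthest in Pdk2. Without D9 and D62 this r was -0.408 (adjusted permutation p = 0.478).

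**Figure D3:**
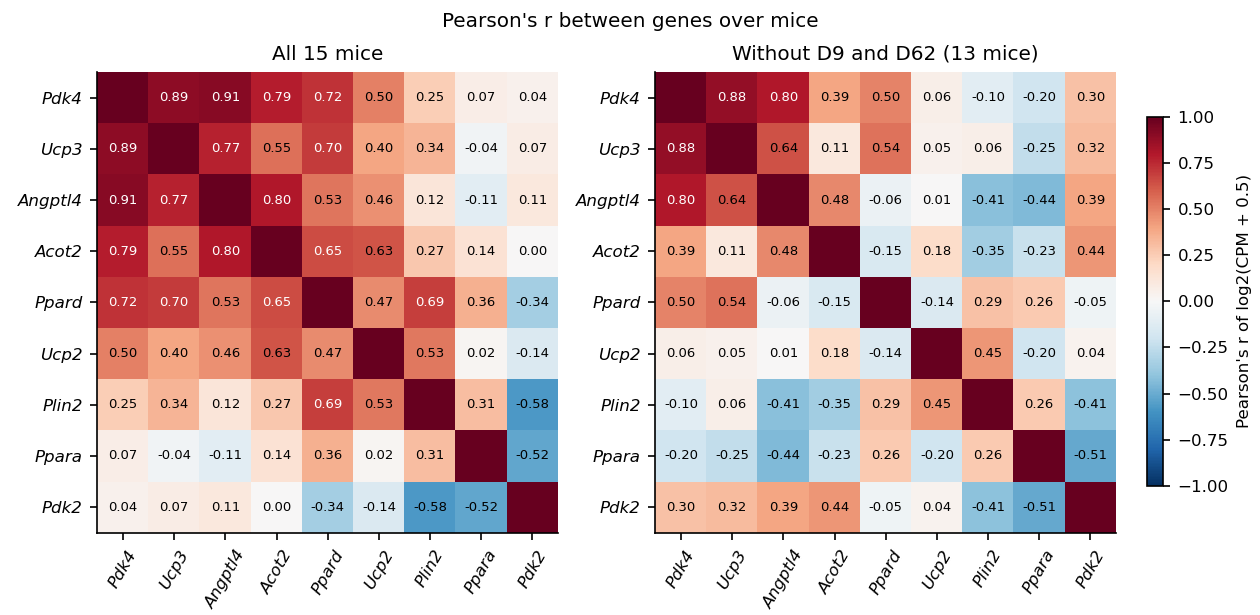
Pearson's r between the 9 genes over mice, from log2(CPM + 0.5), in all 15 mice (left) and in the 13 mice other than D9 and D62 (right). The block of Pdk4, Ucp3 and Angptl4 stays red on the right (0.88 for Pdk4 with Ucp3, 0.80 for Pdk4 with Angptl4), while Pdk4 with Acot2 falls from 0.79 to 0.39.

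The genes whose levels over the 15 mice were most like those of a member are given as a description. For Pdk4 they were Klf9 (r = 0.959, or 0.947 without D9 and D62), a transcription factor induced by glucocorticoids, the unclassified gene Gm44243 (r = 0.918, or 0.823 without D9 and D62) and Trim63 (r = 0.917, or 0.844 without D9 and D62), which encodes the muscle ubiquitin ligase MuRF1. Klf9 spanned 265.8 to 824 CPM and had the same highest (D9, then D62) and lowest (D98) mice as Pdk4. For Ucp3 they were Tcp11l2 (r = 0.855, or 0.841 without D9 and D62), Slc25a22 (r = 0.839, or 0.770 without D9 and D62), a mitochondrial glutamate carrier, and Klf9 (r = 0.836, or 0.805 without D9 and D62). Angptl4 was most like Gm10603 (r = 0.953, or 0.902 without D9 and D62), which is the gene antisense to Ucp3 on chromosome 7 at 0.887 to 6.00 CPM, Map3k6 (r = 0.926, or 0.836 without D9 and D62) and Doc2b (r = 0.918, or 0.857 without D9 and D62). The highest mouse was D9 and the next D62 in each of these genes. Over all tested genes, 660 (3.90%) had r above 0.7 with Pdk4, itself included, and 832 (4.92%) had r below -0.7.

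**Figure D4:**
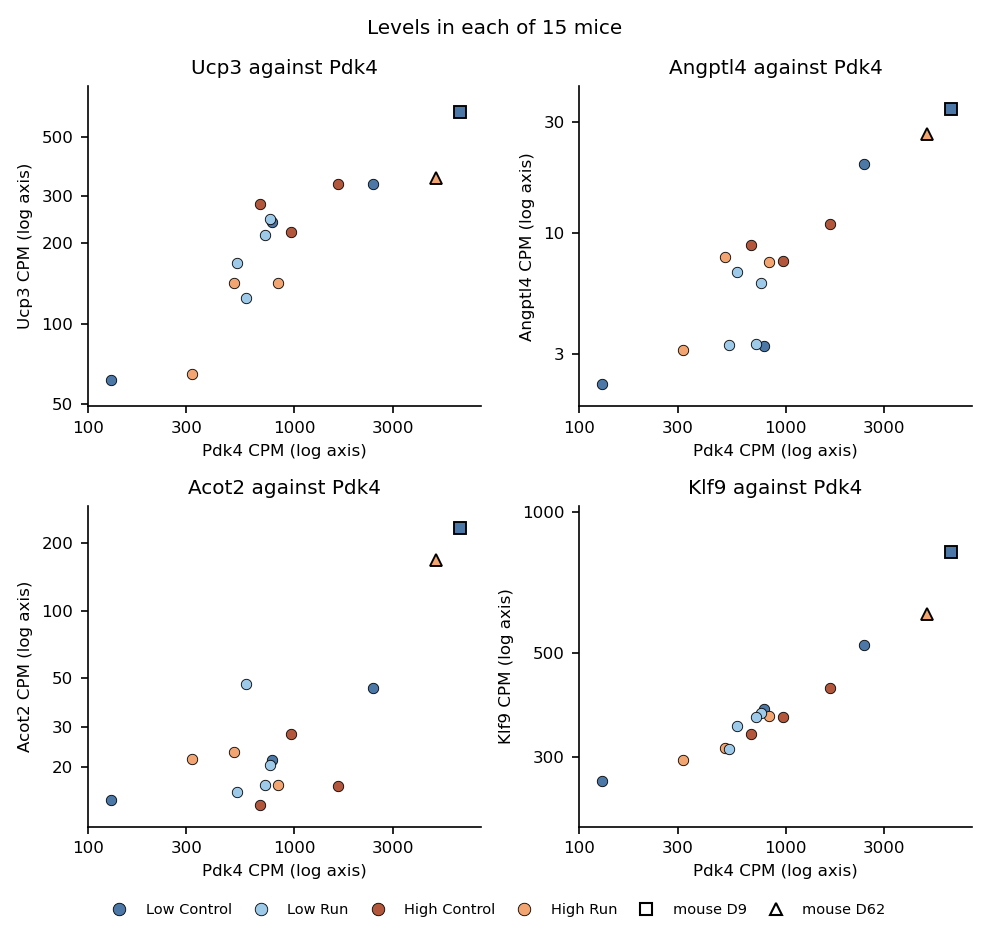
Levels of Ucp3, Angptl4, Acot2 and Klf9 against Pdk4 in each mouse, in CPM on log axes, coloured by group. Klf9 lies along a line with Pdk4 over the whole range (r = 0.959), while for Acot2 the rise rests on D9 (square) and D62 (triangle).

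Other genes around the 9 were read from 5 lists, of which 0 genes passed the FDR in any comparison. Of 32 further PPAR target genes of fatty acid uptake and oxidation, 29 were tested, while Fgf21, Cyp4a14 and Creb3l3 were too low, with at most 14 reads in a mouse. In Low Run against Low Control their median log2 fold change was -0.22, with 0 higher and 4 lower at an unadjusted p under 0.05 (Cpt1b, Acsl1, Vldlr and Plin4), a share close to the 13.4% of all genes. Leaving out both mice, the median was -0.02 with 2 lower, against 7.33% of all genes. The smallest p were those of Vldlr, a receptor that takes up triglyceride-rich lipoproteins, at -1.08 (SE 0.33, unadjusted p = 0.00452), and Plin4, a lipid droplet coat protein, at -1.24 (SE 0.49, unadjusted p = 0.0223), and without the 2 mice they were -0.58 (unadjusted p = 0.0244) and -0.85 (unadjusted p = 0.00433). In High Run against High Control the median was -0.03 with 0 in either direction, against 5.18% of all genes. Acot1 and the carnitine transporter Slc22a5, at -0.28 (SE 0.16, unadjusted p = 0.102), had the smallest p there. D9 and D62 were the 2 highest mice in 9 of these 29 genes, against 12.9% of all tested genes. Of the 29, 6 had r above 0.7 with Pdk4, against 3.9% of all tested genes.

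Of 14 receptor partners and coregulators, 0 were higher and 3 lower in Low Run mice at an unadjusted p under 0.05. The share over all genes was 13.4%, and the list median was -0.17. Lpin1, which encodes a phosphatidate phosphatase that also acts as a coactivator, was at -1.16 (SE 0.38, unadjusted p = 0.00743), and Rxra, the retinoid X receptor partner, at -0.46 (SE 0.16, unadjusted p = 0.0132). Without the 2 mice these were -0.61 (unadjusted p = 0.00354) and -0.31 (unadjusted p = 0.0400), and the list median was -0.13. Rxra had a similar value in High mice, -0.37 (SE 0.18, unadjusted p = 0.0516), where the list median was 0.00. Of 14 genes of the pyruvate dehydrogenase complex and pyruvate entry, Pdp2 was the 1 gene under 0.05 in either run comparison. Over all genes the shares were 13.4% in Low and 5.18% in High mice. Pdp2 encodes a phosphatase that removes the phosphate added by the kinases, and stood at -0.79 (SE 0.34, unadjusted p = 0.0324) in Low mice and -0.81 (SE 0.36, unadjusted p = 0.0388) in High mice. Without the 2 mice its values were -0.71 (unadjusted p = 0.0712) and -0.73 (unadjusted p = 0.0862). Next came Pdpr, the regulatory subunit of the phosphatase, at -1.01 (SE 0.66, unadjusted p = 0.145) in Low mice and Mpc1, a subunit of the mitochondrial pyruvate carrier, at -0.30 (SE 0.14, unadjusted p = 0.0514) in High mice. The list's median was 0.03 in Low and -0.15 in High mice.

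The list of 20 glucocorticoid and FoxO responsive genes was read because Pdk4 is a known target of both factors. Its median log2 fold change was -0.80 in Low mice, with 0 higher and 7 lower at an unadjusted p under 0.05. In High mice it was 0.32, with 0 in either direction. Over all genes, 13.4% reached that level in Low and 5.18% in High mice. D9 and D62 were the 2 highest mice in 17 of the 20, and 14 had r above 0.7 with Pdk4. Over all tested genes these shares were 12.9% and 3.9%. Zbtb16 was at -1.92 (SE 0.59, unadjusted p = 0.00483) and Fkbp5 at -1.85 (SE 0.74, unadjusted p = 0.0246) in Low mice, and both are strongly glucocorticoid responsive. Without the 2 mice they were -1.35 (unadjusted p = 0.0104) and -1.05 (unadjusted p = 0.0575). In High mice the smallest p were those of Cdkn1a, a cell cycle inhibitor, at 1.28 (SE 0.65, unadjusted p = 0.0673) and Sesn1, a stress response gene, at 1.13 (SE 0.84, unadjusted p = 0.200). The value of Cdkn1a was 0.36 (unadjusted p = 0.394) without the 2 mice, and that of Sesn1 turned to -0.45 (unadjusted p = 0.327). Leaving out both mice, the medians were -0.29 and -0.39. Then 1 gene in Low and 2 in High mice were under 0.05, all lower, against 7.33% and 6.85% of all genes. Of 14 genes of lipid storage and lipolysis, 3 were lower in Low mice (Lipe, Cidec and Plin4) and 1 in High mice (Abhd5) at an unadjusted p under 0.05, beside the 13.4% and 5.18% of all genes, and Plin4 is also among the PPAR targets. The hormone-sensitive lipase Lipe was at -0.77 (SE 0.21, unadjusted p = 0.00224) and the droplet protein Cidec at -1.04 (SE 0.30, unadjusted p = 0.00333), with a list median of -0.32, or -0.25 without the 2 mice. In High mice Abhd5, the activator of adipose triglyceride lipase, was at -0.28 (SE 0.12, unadjusted p = 0.0304), Cidea at 0.97 (SE 0.48, unadjusted p = 0.0613) and the list median at 0.13. Without the 2 mice Cidea was at 0.61 (unadjusted p = 0.203), and the list median turned to -0.19. Cidec is also on the adipocyte marker list whose sums are given beside Angptl4.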

How the data were processed

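Gastrocnemius RNA of 15 mice in 4 groups was analyzed. The authors aligned reads to mm10 and deposited counts per gene, without normalization, of uniquely aligned proper pairs on the strand of each non-mitochondrial Ensembl gene, and a variance-stabilizing transformation of them on a log2-like scale, which served here as an alternative scale only. The submitters' processing notes name STAR 2.7.9a, featureCounts of Subread 2.0.3, FastQC 0.11.7 and DESeq2 1.32.0. Proper pairs that align to near-identical genes are not in such counts, and the part of the powdered muscle that was sampled sets its cell mixture.

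Genes were matched by symbol to GENCODE M21 on GRCm38. In R 4.3.3, counts were filtered with filterByExpr, scaled by TMM and tested with edgeR 4.0.16 (glmQLFit, glmQLFTest, 1 mean per group), after the test had been checked on simulated data; alternatives used limma 3.58.1 and DESeq2 1.42.0. The SE is the log2 fold change divided by the square root of its F statistic. CPM are per the total of the counted genes, and RPKM also per kilobase of merged exons. Single genes were compared by two-sided exact permutation of log2(CPM + 0.5) over mice, and correlations with 100000 permutations, in Python 3.11.15 with SciPy 1.17.1. The 6 motifs were searched on both strands of the RefSeq windows. Each library is 1 mouse, so p-values measure the spread between mice. At this depth the scarcest members, Ppara and Angptl4, had at least 57 and 58 reads in a mouse.

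The 9 genes, the 5 gene lists, the marker lists and the tests were chosen with earlier results of these data known. Named beside the 9 genes were, from each list, the 2 genes with the smallest unadjusted p in each run comparison and any past the FDR, close family members, and the 3 genes most correlated with Pdk4, Ucp3 and Angptl4. Other names were taken after their values were seen. A gene that the rule names among the receptor partners and coregulators is not reported here. Alternatives were an FDR of 0.05, the Wald test of DESeq2, voom with quality weights, scaling by RLE or upper quartile, unfiltered counts, a minimum of 10 counts per gene and mouse, fits of only the groups compared, another pseudocount, each mouse left out in turn and, chosen after seeing the data, D9 and D62 left out together.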

Additional observations from a re-analysis of the deposited data

Results flagged for a closer look

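In 4 of the 27 sets of 4 mice examined (9 genes in 3 groups), the highest mouse stood apart on the CPM scale, where the gap to the nearest mouse, as a share of the whole range of the group, was above Dixon's critical value of 0.83 for 4 samples. For independent sets of normally distributed values, about 1 in 20 would pass. The 27 sets share mice and hold raw CPM, so that rate is no measure of chance here. Acot2 in High Run mouse D62 was at 168 CPM against 16.6 to 23.3 CPM in the other 3 mice, a share of 0.956. Pdk4 in the same mouse was at 4845 CPM against 318 to 829.9 CPM, a share of 0.887. Acot2 in Low Control mouse D9 was at 235 CPM against 14.2 to 45.0 CPM, a share of 0.860, and in Low Run mouse D68 it was at 47.0 CPM against 15.4 to 20.3 CPM, a share of 0.844. On the scale of log2(CPM + 0.5), which the exact permutation tests used, the share was 0.856 for Acot2 in D62, and the other 3 fell under the limit, at 0.648, 0.592 and 0.753 in the order given.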

How the results depend on the processing

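No member was called in any of the 6 comparisons under any alternative, and the smallest adjusted p of a member in any of them was 0.175, for Angptl4 in Low Run against Low Control without a count filter. That setting called 86 of 35419 genes in this comparison, 19 in High Run against High Control, 4 for the interaction, 81 for running averaged and 6 in High Run against Low Run. All 36 exact permutation tests stayed at or above 0.05 under every alternative scale and with each mouse left out. For a test with a group of 3 mice or fewer this says nothing about stability, because its p could not fall under 0.05 here. Tests of 4 against 4 mice could have done so, with a smallest possible p of 0.0286. Of 279 alternative fold changes of single genes with running, 262 kept the direction, some at a much smaller size. In Low mice, voom with quality weights gave -0.13 for Pdk4, -0.46 for Acot2, -0.40 for Angptl4, -0.01 for Ucp3 and -0.02 for Ppard. Ppara stayed at -0.85 there. With voom and quality weights, Ucp2 turned to 0.0209 in Low mice, and in High mice Pdk4 turned to -1.18, Angptl4 to -0.99 and Plin2 to 0.0428. Without D9 and D62 together, Ucp2 turned to 0.11 in Low mice, and in High mice Pdk4 turned to -1.09, Acot2 to -0.0367, Angptl4 to -0.65 and Plin2 to 0.0512. When single mice were left out, the Low change ranged from -0.0416 to 0.10 for Pdk2 and from -0.60 to 0.11 for Ucp2. The High change ranged from -1.09 to 0.85 for Pdk4, from -0.0369 to 1.88 for Acot2 and from -0.65 to 0.53 for Angptl4, each lowest without D62, and from -0.0874 to 0.0509 for Plin2. The number of gene pairs with an adjusted permutation p under 0.05, 7 in all mice, ranged from 2 (without D9) to 10 (without D53) with a mouse left out, and was 2 without D9 and D62 together and 10 on the deposited transformed scale. Beyond the construction of each setting, the cause was not tested. No paired analysis was possible because each mouse is in 1 group and no number is shared between groups.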

Other observations

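Among the genes around Pdk4, 3 had levels that ran opposite to it from mouse to mouse, as values noticed after they were computed. Pdp1, the calcium-activated phosphatase that reverses the action of the kinases, had r = -0.830 with Pdk4 over the 15 mice and -0.664 without D9 and D62. Its level was 18.2 CPM in D9, the lowest of all mice, and 38.3 CPM in D62, against a median of 80.3 CPM. Pdk1, the kinase isoform tied to hypoxia, had r = -0.790 (-0.547 without the 2 mice), and G0s2, an inhibitor of adipose triglyceride lipase, had r = -0.697 (-0.753). Among the 14 genes of pyruvate entry, 2 had r under -0.7 with Pdk4 and 0 had r above 0.7, against 4.92% and 3.9% of all tested genes. The phosphatase gene Pdp2 was at 0.416 (0.643).

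On the side of fat, Plin4 followed Pdk4 with r = 0.876 (0.708 without D9 and D62) and reached 909 CPM in D9 and 1111 CPM in D62, against at most 590.0 CPM in the other mice. The ubiquitin ligase genes of muscle wasting, Trim63 and Fbxo32, reached 5654 and 3568 CPM in D9 and 3965 and 3406 CPM in D62, against at most 1278 and 1561 CPM in the other 13 mice. Foxo1, a transcription factor that acts on Pdk4 and on both ligase genes, was at 262 CPM in D9 and 343 CPM in D62, and at most 99.9 CPM elsewhere. The fatty acid oxidation enzymes Acadm, Hadha and Acadvl, also PPAR targets, did not share this pattern, with r of -0.365, 0.0781 and 0.204 with Pdk4 over the 15 mice. These genes were named after their values were seen.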
